A study of Mus musculus with 5 samples.

Results

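The 87 cytosolic ribosomal protein genes were those whose symbols begin with Rps or Rpl and a number, or are Rpsa, Rplp0, Rplp1 or Rplp2, leaving out rows named as pseudogenes and the Rps6k kinases. They were 87 of the 27998 genes in the matrices and were chosen by name alone. Of them, 77 encode core proteins of the ribosome, 31 in the small subunit and 46 in the large subunit, and the other 10 are paralogs, copies or a partner of such genes. The study profiled single bone marrow cells from wild type, healthy C57BL/6 mice, sorted by flow cytometry and sequenced with the 10x Genomics 3' kit, which counts transcript ends by unique molecular identifiers (UMIs). It compared 4 sort gates. Megakaryocyte/erythroid progenitors (MEP) were Lin-KIT+SCA1-CD34-CD16/32-, granulocyte/monocyte progenitors (GMP) Lin-KIT+SCA1-CD34+CD16/32+, common myeloid progenitors (CMP) Lin-KIT+SCA1-CD34+CD16/32-, and LSK cells, which hold the stem and multipotent cells, Lin-SCA1+KIT+. How many mice were used, and their age, is not stated in the labels. Each gate was 1 library, since both CMP deposits were identical and were used once, so no difference below has a replicate check or a p-value.

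Ribosomal proteins and ribosomal RNA build the small subunit, which reads the mRNA, and the large subunit, which joins amino acids. The core proteins are needed in near equal numbers in each ribosome, and many of their mRNAs begin with a C and a run of pyrimidines, the 5' TOP motif, through which mTOR signalling and LARP1 set their translation and stability. In blood, loss of 1 copy of any of several of these genes causes Diamond-Blackfan anaemia in humans, a failure of red cell production.

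After filters, 6284 MEP, 8027 GMP, 3713 CMP and 10870 LSK cells held 80273121, 73362645, 26919088 and 75167959 UMIs, with medians of 12578, 9100.0, 6904 and 5991.5 UMIs per cell. Of the 5 gate antigen genes looked at, Ly6a, Cd34 and Fcgr3 differed between libraries as the sorts would select for. Ly6a, which encodes SCA1, had 0.112, 1.10 and 1.49 CPM (counts of the gene per 1000000 UMIs of the library) in MEP, GMP and CMP, against 78.2 CPM in LSK, and Cd34 had 0.498 CPM in MEP, against 118, 234 and 399 CPM in GMP, CMP and LSK. Fcgr3, which encodes CD16, had 208 CPM in GMP, with 0.149 CPM in MEP, 13.9 CPM in CMP and 0.838 CPM in LSK. Fcgr2b and Kit, the rest of the list, differed less than Fcgr3 between GMP and CMP. Leaving out the cells under 22% ribosomal protein UMIs described below, Fcgr2b had 61.5 CPM in GMP and 33.5 CPM in CMP. Kit had 35.0 CPM in GMP and 47.0 CPM in CMP in the same cells. Summed markers of other fates also differed: 5 erythroid genes had 5566, 4.08, 107 and 33.5 CPM in MEP, GMP, CMP and LSK, 4 granule genes 12.4, 27386, 5952 and 699.6 CPM, and 4 genes of dividing cells 1014, 853, 737 and 576 CPM. Their part in the differences below was not tested. Any pair of gates shared 36 to 130 cell barcodes, at most 1.62% of the cells of a gate. A random draw of barcodes would give 31.6 to 118, so the sharing was near that number.

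Beside the values, the start regions of 8 members that the results turn on are shown, first those of 3 pairs of a core gene and its paralog. The mouse sequences are from RefSeq, build GRCm38.p6, and run 5' to 3' on the gene's strand over 60 bases before and 10 bases after the annotated start. Capitals mark a 5' TOP-type run, a C followed by 4 or more pyrimidines, beginning within 3 bases of that start.
Rps27: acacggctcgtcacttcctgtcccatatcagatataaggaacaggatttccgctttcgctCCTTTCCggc
Rps27l: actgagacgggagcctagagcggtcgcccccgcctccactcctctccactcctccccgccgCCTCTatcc
Rpl22: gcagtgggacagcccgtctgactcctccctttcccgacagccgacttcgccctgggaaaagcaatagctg
Rpl22l1: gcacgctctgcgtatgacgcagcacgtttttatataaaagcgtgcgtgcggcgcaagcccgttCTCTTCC
Rpl36a: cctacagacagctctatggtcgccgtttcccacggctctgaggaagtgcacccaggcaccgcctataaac
Rpl36al: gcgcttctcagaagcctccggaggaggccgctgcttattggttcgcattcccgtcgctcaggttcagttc
Of the other 2, Rpl35 is a core gene lowest in MEP and highest in LSK, and Rpl7a one highest in MEP.
Rpl35: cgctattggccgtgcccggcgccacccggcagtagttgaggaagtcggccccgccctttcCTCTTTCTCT
Rpl7a: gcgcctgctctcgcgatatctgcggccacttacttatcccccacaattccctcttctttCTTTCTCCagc
The windows are Rps27 chr3:90213639-90213708 (minus strand), Rps27l chr9:66946026-66946095 (plus strand), Rpl22 chr4:152325666-152325735 (plus strand), Rpl22l1 chr3:28805448-28805517 (plus strand). The others are Rpl36a chrX:134585594-134585663 (plus strand), Rpl36al chr12:69184058-69184127 (minus strand), Rpl35 chr2:39005122-39005191 (minus strand), Rpl7a chr2:26910747-26910816 (plus strand). By the name rule 69 entries were found, but these include Rps23rg1, Rpl32l and Rpl37rt, which are not among the 87 members. They were counted as core, so the core counts of entries include them. Of the 60 entries counted as core, 24 (40%) had a TOP-type run near the start. Rps23rg1 and Rpl32l are among the 24, and Rpl32l has its run at the exact start. The share was 11.6% of all 27025 genes in the table and 11.8% of the 2081 other genes averaging at least 50 CPM. At the exact start the run was in 13 of the 60 (21.7%), against 2.49% of all genes. Other motifs were sought from 250 bases before to 50 after the start, on either strand. CCGGAAG, a core of the binding site of ETS factors, was found in 38.3% of the 60 entries and in 25% of the other expressed genes. AAGATGG, a YY1-type motif, was found in 13.3% and 9.18%. TATAAA between 40 and 15 bases before the start was found in 0 of the 60 entries, in 1.20% of the other expressed genes and in 2.22% of all genes. With shares this low, 0 of 60 does not set the core entries apart. These matches describe the letters only.

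Ribosomal protein mRNA was a large part of each library, and its total differed little between gates. The members held 30.4% of UMIs in MEP (exact 95% binomial interval 30.40 to 30.42%), 29.4% in GMP (29.42 to 29.44%) and 31.1% in CMP (31.12 to 31.15%), against 33.0% in LSK (32.99 to 33.01%). The intervals cover counting error only. On the log2 scale the shares differed by -0.12 for MEP over LSK, by -0.17 for GMP over LSK, by -0.08 for CMP over LSK, by 0.05 for MEP over GMP, by -0.03 for MEP over CMP and by -0.08 for GMP over CMP. These directions are relative to total UMIs and those that involve LSK or CMP flip to higher in the more mature gate when libraries are scaled by TMM, an edgeR factor that centres the bulk of genes, to 0.32, 0.28 and 0.23 over LSK for MEP, GMP and CMP, and to 0.09 and 0.05 for MEP and GMP over CMP. TMM moves every log2 difference over LSK up by 0.44, 0.45 and 0.31 for MEP, GMP and CMP, those over CMP by 0.12 and 0.13 for MEP and GMP, and MEP over GMP by -0.01. The small subunit held 13.7, 13.6 and 14.3% of UMIs in MEP, GMP and CMP, against 15% in LSK, and the large subunit 16.2, 15.3 and 16.4%, against 17.6%. The large subunit thus had 1.18, 1.12, 1.14 and 1.17 UMIs per small-subunit UMI in MEP, GMP, CMP and LSK.

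Single cells repeated the order of the pooled shares, with wide overlap. The median cell had 30.5% ribosomal protein UMIs in MEP, 29.5% in GMP and 31.6% in CMP, against 33.2% in LSK, and the lower and upper quartiles were 28.9 and 32.4% in MEP, 27.8 and 31.3% in GMP, 29.7 and 33.4% in CMP and 31.2 and 35.2% in LSK. Of MEP, GMP and CMP cells, 18.7, 9.03 and 27.4% lay above the median LSK cell. The spread between cells had an SD of 2.75, 3.13, 3.49 and 3.12 points in MEP, GMP, CMP and LSK, against 0.474, 0.517, 0.607 and 0.631 points from counting alone. Per cell, the median of ribosomal protein UMIs was 3854 in MEP, 2686 in GMP and 2176 in CMP, against 2040.0 in LSK, and that of all other UMIs 8668, 6389 and 4751, against 3947, so larger libraries per cell held more of both. More RNA per cell and deeper sampling of each cell cannot be told apart here. The median cell held UMIs of 83 of the 87 members in MEP and of 82 in each of the other gates.

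**Figure D1:**
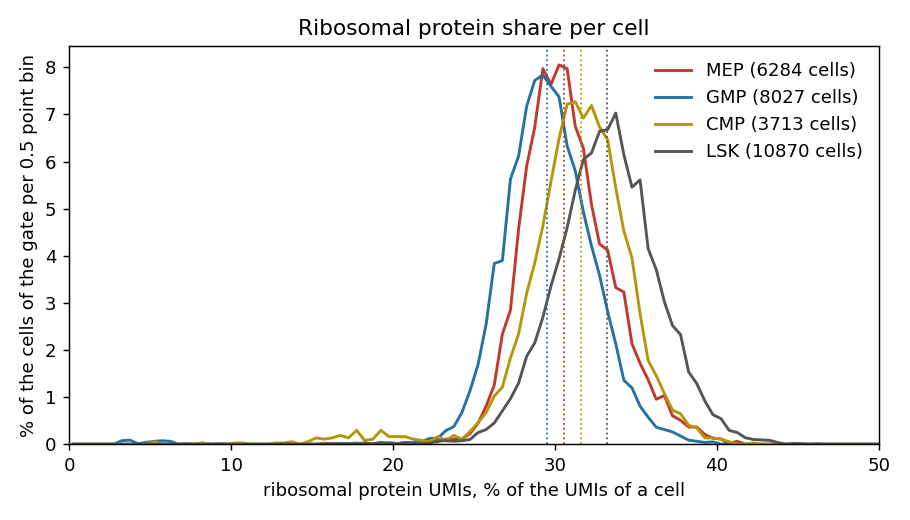
Distribution over cells of the share of UMIs from the 87 ribosomal protein genes (x axis, percent) in MEP, GMP, CMP and LSK. The medians (dotted lines) were 30.5, 29.5, 31.6 and 33.2%, the distributions overlap, and GMP and CMP have a tail of cells under 22%.

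A small number of cells had far fewer ribosomal protein UMIs than the rest. Under 22%, a bound chosen after the distributions were seen, lay 10 of 6284 MEP cells (0.159%), 57 of 8027 GMP cells (0.710%) and 91 of 3713 CMP cells (2.45%), against 16 of 10870 LSK cells (0.147%). In GMP these cells had a median share of 6.11%, with none between 9.5 and 16.5%, so the levels below pool cells on both sides of this gap. In them 77 of 77 core members were lower than in the remaining cells, as the choice of cells entails. Other genes, which the bound did not use, stood apart too: all 5 neutrophil markers passed 2-fold, with a summed level of 98870.3 CPM in the 57 cells against 205 CPM in the remaining GMP cells. Summed over the 57 cells, 4 of 5 basophil or mast cell markers and 4 of 5 dendritic cell markers passed 2-fold too. Whether these markers lay in the same single cells was not tested. S100a9, an abundant protein of mature neutrophils, had 67386 CPM in them against 45.9 CPM in the rest, and Camp, a secondary granule peptide, 47216 CPM against 20 CPM. In CMP the 91 cells had a median share of 17.9% and higher levels of MHC class II genes, with Cd74 at 9287 CPM against 59.3 CPM in the remaining cells and H2-Aa at 4721 CPM against 29.8 CPM, beside S100a8 at 9615 CPM against 29.8 CPM. All 5 neutrophil, 4 of 5 dendritic cell, 3 of 5 monocyte and 3 of 4 division markers passed 2-fold in them, the division markers with 2085 CPM summed against 714 CPM in the remaining CMP cells. Cd34, which the CMP sort selects for, had 26.6 CPM in the 91 cells, against 238 CPM in the remaining CMP cells.

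Core genes kept similar levels in the 4 gates. Since each transcript is counted once at its 3' end, the levels below are counts of molecules and not divided by gene length. The highest and lowest gate differed by under 1.5-fold in 60 of the 77 core genes and by 2-fold or more in 4, among them Rps27, Rps29 and Rps28. For MEP over GMP 0 members were 2-fold higher or lower, against 12.1 and 12.2% of all genes tested, for MEP over CMP 0 and 1, against 10.5 and 11.3%, and for GMP over CMP 0 and 1, against 2.92 and 4.03%. Over LSK the members 2-fold higher and lower were 1 and 3 in MEP, against 13.5 and 16.4% of genes, 0 and 0 in GMP, against 7.49 and 13.3%, and 2 and 0 in CMP, against 2.72 and 6.12%. The 10 most abundant members of each gate, ranked within that gate, held 24.2, 24.2 and 23.9% of member UMIs in MEP, GMP and CMP, against 22.7% in LSK. The 10 with the highest mean level over the gates include Rpl13, Rpl32, Rps23, Rps19, Rps18, Rps6, Rps27a, Rps14 and Rpl13a. Rps23, which lies at the decoding centre, had 7871 CPM in MEP, 7916 CPM in GMP and 7890.3 CPM in CMP, against 7500.3 CPM in LSK. Rps6, the substrate of S6 kinase, had 6577 CPM in MEP, 7256 CPM in GMP and 6994 CPM in CMP, against 6768 CPM in LSK. The highest and lowest gate of these 2 genes differed by 0.08 and 0.14 on the log2 scale. Rps19, the gene most often mutated in Diamond-Blackfan anaemia, had 6254 CPM in MEP, 7721 CPM in GMP and 8073 CPM in CMP, against 8644 CPM in LSK, lowest in MEP, and Rps27a, which is made as a fusion with ubiquitin, had 7536 CPM in MEP, 7186 CPM in GMP and 6542 CPM in CMP, against 5850.2 CPM in LSK, highest in MEP. By CPM, 23 of the 77 core genes were highest in MEP, 3 in GMP and 13 in CMP, against 38 in LSK, a tally that depends on scaling, since with TMM 63 of the 77 were higher in CMP than in LSK.

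**Figure D2:**
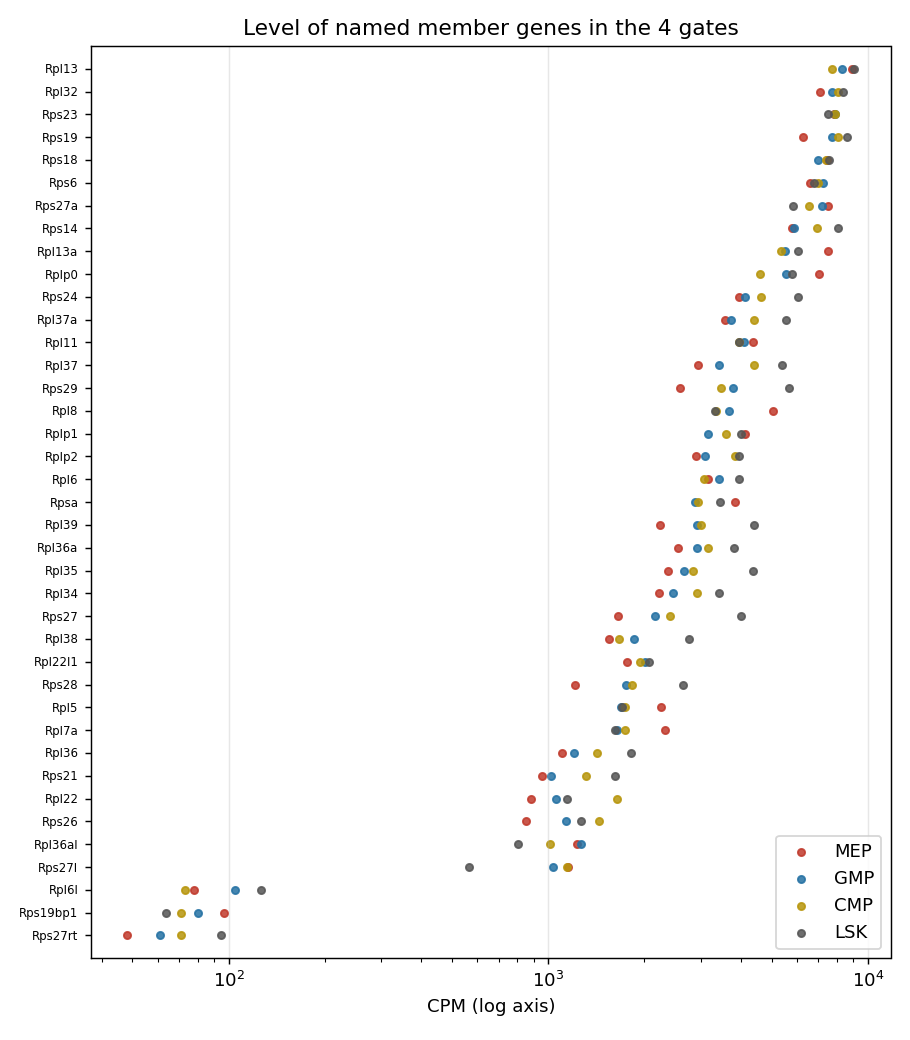
Level in CPM (log axis) in MEP, GMP, CMP and LSK of members named in the text (y axis), 1 point per library. Most lie close together across gates, while Rps27, Rps29 and Rps28 stand high and Rps27l low in LSK.

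Between MEP and GMP, 0 members passed the rule of 1.5-fold with 50 CPM or more in the higher library in either direction, against 26.6% of the 3066 genes tested that were higher and 17.4% that were lower in MEP. The 84 members tested had a median log2 difference of 0.05, and all genes tested one of 0.21. The smallest values were those of Rps29 (-0.55) and Rps28 (-0.53), and the largest those of Rpl7a (0.50), Rpl8 (0.46) and Rpl13a (0.45). Rpl10l was at 0 UMIs in every gate, and Rpl39l and Rpl3l stayed at or under 2.39 and 0.812 CPM, so these 3 paralogs were not tested.

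Over LSK, a group of core genes, mostly with short mRNAs, had lower CPM in each of the more mature gates, most so in MEP. TMM scaling leaves the median of the core genes of up to 500 bases near 0 in CMP. By annotated length not all of the group were short. Rpl35 and Rpl37 have 946 and 835 bases, against a median of 780 over the core genes. The annotated length need not be that of the transcripts counted. The annotated Rpl35 gene reaches to base 39005624, upstream of the window around its RefSeq start shown above. In MEP 15 members were 1.5-fold lower, against 24.0% of the 3350 genes tested, in GMP 9, against 23.1% of 3149, and in CMP 5, against 14.6% of 3056, so the share of members that were lower was under that background in each gate. By CPM 26, 17 and 28 of the 77 core genes were above 0 over LSK in MEP, GMP and CMP, and 55, 62 and 63 with TMM scaling. The median of the 84 members tested was -0.07, -0.13 and -0.06 for MEP, GMP and CMP over LSK, and that of all genes tested 0.18, -0.01 and 0.05. Rps27, a zinc-finger protein of the small subunit, had 1650.1 CPM in MEP, 2153 CPM in GMP and 2404 CPM in CMP, against 4022 CPM in LSK, a log2 difference of -1.29 (95% interval -1.29 to -1.28) for MEP over LSK, -0.90 (95% interval -0.91 to -0.89) for GMP and -0.74 (95% interval -0.75 to -0.73) for CMP. Rps29 had 2590.1 CPM in MEP, 3783 CPM in GMP and 3480.3 CPM in CMP, against 5683 CPM in LSK, and Rps28 had 1217 CPM in MEP, 1754 CPM in GMP and 1824 CPM in CMP, against 2641 CPM in LSK. The 2 fell by 1.13 and 1.12 on the log2 scale in MEP. In all 3 genes LSK was the highest library. These are the only members that stayed 1.5-fold lower in MEP with TMM scaling, and 0 did so in GMP and CMP. On the large subunit side, Rpl39, which lines the exit tunnel, had 2241 CPM in MEP, 2932 CPM in GMP and 3000.2 CPM in CMP, against 4404 CPM in LSK. Rpl35, at the outer end of that tunnel, had 2364 CPM in MEP, 2660.3 CPM in GMP and 2845 CPM in CMP, against 4379.6 CPM in LSK, and Rpl38, which mouse mutants show to be needed for normal patterning of the skeleton, had 1556 CPM in MEP, 1856 CPM in GMP and 1669 CPM in CMP, against 2749.7 CPM in LSK. Their log2 differences for MEP over LSK were -0.98, -0.89 and -0.82. The 15 also include Rpl37, Rps24, Rpl37a, Rpl34, Rps21, Rpl36, Rps27rt and Rpl6l. Rps27rt and Rpl6l are near copies of Rps27 and Rpl6, at 126 CPM or less, and their counts are uncertain because reads of the parent gene could be assigned to them.

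**Figure D3:**
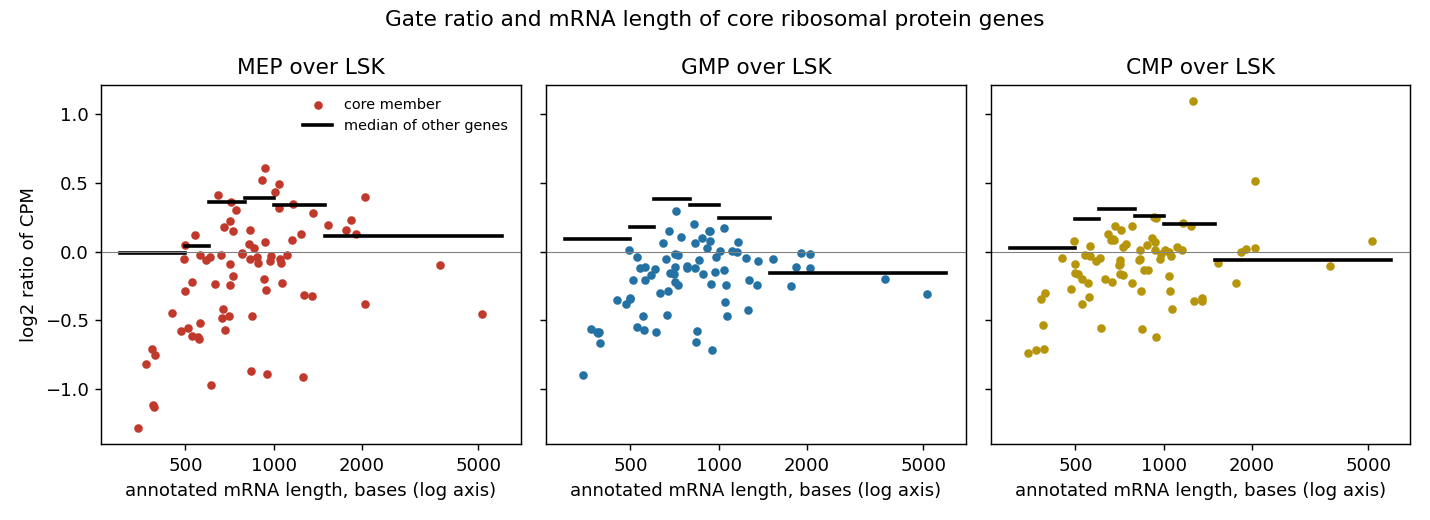
Log2 ratio of CPM of each of the 77 core genes (points, y axis) for MEP, GMP and CMP over LSK (panels) against the annotated length of its mRNA in bases (x axis, log scale), with the median of other genes per length bin as black lines. The shortest core genes lie lowest, and TMM scaling would move all points up by 0.44, 0.45 and 0.31.

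Among the core genes, the difference over LSK was lowest for the shortest mRNAs. The 11 core genes with annotated mRNAs of up to 500 bases, which include Rps27 (345 bases), Rpl38 (367.5), Rps28 (387) and Rps29 (390.0), had a median log2 difference of -0.71 for MEP over LSK, -0.57 for GMP and -0.30 for CMP, and 10 of the 11 were below 0 in each. The 14 core genes of 1000 to 1500 bases had medians of 0.03, -0.10 and -0.02. By annotated length there was no steady trend among longer mRNAs. The longest annotated lengths, 5130 bases for Rps15a and 3706 for Rps20, may not be those of the transcripts counted. In GMP over LSK the median was -0.12 both at 600 to 800 bases and above 1500 bases, where 8 of 8 were below 0. Spearman's rho across the 77 core genes was 0.45, 0.36 and 0.31 for the 3 contrasts and 0.41 for MEP over GMP. These are descriptions across genes, which are not independent, and the 3 contrasts share the LSK library. Genes outside the set with mRNAs of up to 500 bases, 37 of them, had a median of -0.01 for MEP over LSK, against 0.36 for the 184 genes of 600 to 800 bases. Over all other genes rho was -0.11, -0.30 and -0.28 for MEP, GMP and CMP over LSK, opposite in sign to the core genes. The part of mRNA length in these differences was not tested. Of the 10 core genes 1.5-fold lower in MEP than in LSK that have a promoter entry, 6 had a TOP-type run near the start. The other 50 entries counted as core had 18, but they include Rps23rg1, Rpl32l and Rpl37rt, which are not members.

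By CPM, few members were higher in the more mature gates than in LSK. They were 4 in MEP, against 29.7% of genes tested, 2 in GMP, against 18.8%, and 2 in CMP, against 10.6%. With TMM scaling they were 22, 10 and 4, and no share of all genes under TMM is given to set beside these counts. Rps27l, a paralog of Rps27 and a known p53 target in human cells, begins with the shorter TOP-type run of the pair shown above, 5 bases against 7, and was 1.5-fold higher in all 3. It had 1157 CPM in MEP, 1036 CPM in GMP and 1147 CPM in CMP, against 564 CPM in LSK, a log2 difference of 1.04 (95% interval 1.02 to 1.05) for MEP over LSK, 0.88 (95% interval 0.86 to 0.89) for GMP and 1.02 (95% interval 1.003 to 1.05) for CMP. Its partner Rps27 went the other way in each of the same contrasts. Per cell, Rps27l had a median of 36.3, 33.8 and 33.8 UMIs per 10000 member UMIs in MEP, GMP and CMP, against 15 in LSK. Rpl36al, the paralog of Rpl36a, had 1232 CPM in MEP, 1270.1 CPM in GMP and 1011 CPM in CMP, against 807 CPM in LSK and was 1.5-fold higher in MEP and GMP, with log2 differences of 0.61 and 0.65. Rpl36a itself had 2551 CPM in MEP, 2920.3 CPM in GMP and 3153 CPM in CMP, against 3803 CPM in LSK. Rpl8, near the peptidyl transferase centre, had 5053 CPM in MEP, 3677 CPM in GMP and 3341 CPM in CMP, against 3319.6 CPM in LSK, and was 1.5-fold higher in MEP over LSK (log2 0.61) and over CMP (0.60). Rps19bp1, which binds Rps19 and is not a subunit, had 96.6 CPM in MEP, 80.4 CPM in GMP and 70.8 CPM in CMP, against 63.6 CPM in LSK.

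**Figure D4:**
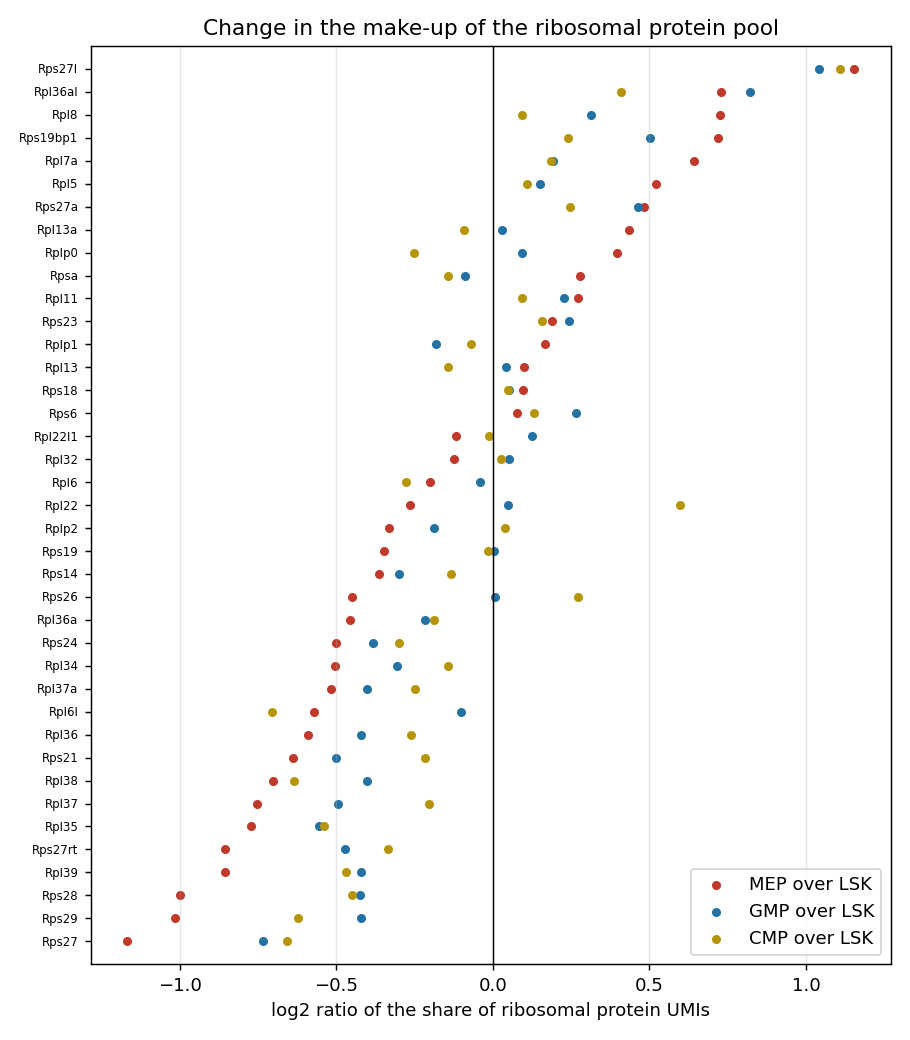
Log2 ratio over LSK of each gene's share of all ribosomal protein UMIs (x axis) in MEP, GMP and CMP, for members named in the text (y axis). Among the genes plotted, Rps27l lies farthest right in all 3 gates and Rps27 farthest left in MEP and GMP. The ratio within the family does not depend on library scaling.

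Few members differed between the other gates and CMP. In MEP 2 were 1.5-fold higher, Rplp0 and Rpl8, against 25.1% of 3104 genes tested, and 3 were lower, among them Rpl22 and Rps26, against 17.5%. In GMP 0 were higher, against 6.99% of 2804, and 2 lower, among them Rpl22, against 8.95%. Rpl22 had 881 CPM in MEP, 1060.1 CPM in GMP and 1641 CPM in CMP, against 1149 CPM in LSK, and its paralog Rpl22l1 had 1762 CPM in MEP, 2013 CPM in GMP and 1939.5 CPM in CMP, against 2073 CPM in LSK, a pair known from mouse and zebrafish to have separate roles in blood development. The Rpl22 difference was -0.90 for MEP over CMP and that of Rpl22l1 was -0.14. As shown above, Rpl22l1 has a TOP-type run near its start and Rpl22 has none there.

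Of the 20 members on a list of Diamond-Blackfan anaemia genes, 0 were 1.5-fold higher and 5 lower in MEP than in LSK, which were Rps24, Rps29, Rps28, Rpl35 and Rps27, with a median log2 difference over the list of -0.44, which TMM scaling would move up by 0.44. In GMP 4 were lower (median -0.20) and in CMP 3 (median -0.10). Over all genes tested 24.0, 23.1 and 14.6% were lower in MEP, GMP and CMP, so these counts of 20 are near the background and no result about the list. Against GMP, 0 of the 20 passed in MEP and the median was -0.07. Rpl5 and Rpl11, which with 5S RNA bind MDM2, passed 1.5-fold in no contrast. Rpl5 had 2256 CPM in MEP, 1691 CPM in GMP and 1737 CPM in CMP, against 1708 CPM in LSK. Rpl11 had 4388 CPM in MEP, 4113 CPM in GMP and 3967 CPM in CMP, against 3944 CPM in LSK. Among 19 other mRNAs of the TOP class or the ribosome, which are no members, 3 were 1.5-fold higher and 1 lower in MEP than in LSK (median 0.21), and 5 higher and 0 lower in MEP than in GMP (median 0.26). Over all genes tested 29.7% were higher and 24.0% lower in MEP than in LSK, and 26.6 and 17.4% in MEP than in GMP. Npm1, a nucleolar chaperone of ribosome assembly, had 4313 CPM in MEP, 2163 CPM in GMP and 2017 CPM in CMP, against 1876 CPM in LSK. Eef1a1, the elongation factor, had 5370.0 CPM in MEP, 4444 CPM in GMP and 5892 CPM in CMP, against 6303 CPM in LSK. Among 17 genes that set ribosomal protein supply, 8 were tested for MEP over LSK, and 4 were 1.5-fold higher and 0 lower, against the same 29.7 and 24.0%. Eif4ebp1, a translation inhibitor under mTOR, had 350.3 CPM in MEP, 136 CPM in GMP and 125 CPM in CMP, against 111 CPM in LSK, and Larp1, which binds TOP mRNAs, had 71.5 CPM in MEP, 39.8 CPM in GMP and 38.4 CPM in CMP, against 38.7 CPM in LSK.

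Within a gate, the ribosomal protein share was lower in cells with markers of division. Cells with 2 or more UMIs of Mki67, Top2a, Cdk1 and Birc5, against cells with 0, had 30.2% against 33.6% in MEP, 29.2% against 31.2% in GMP, 30.3% against 33.1% in CMP and 31.8% against 34.2% in LSK. The cells with markers had more UMIs, 13947 against 5048 at the median in MEP and 9540 against 4980 in LSK. With each cell thinned to 2000 UMIs the differences were -1.83, -1.23, -3.24 and -2.99 points in MEP, GMP, CMP and LSK, and among cells with 5000 to 8000 UMIs alone, a band chosen after the data were seen, -3.52, -2.29, -3.81 and -2.46 points. The share was lower in each of the 4 gates by all 3 measures. In CMP the 91 cells under 22%, which were high in division markers, are part of this comparison, and their part in it was not tested. The change was spread over the family, since 0 members passed 1.5-fold in any gate, and 11, 1, 3 and 10 of the 77 core genes were above 0 in MEP, GMP, CMP and LSK. Over all genes tested, 9.8, 3.38, 5.35 and 8.67% were 1.5-fold higher with the markers and 8.37, 2.54, 3.27 and 3.76% lower. Rps27l went the other way, with 1173 CPM in dividing against 879 CPM in other MEP cells and 622 CPM against 498 CPM in LSK. In LSK, cells with and without stem cell markers (Mecom, Hlf, Procr, Fgd5 and Mllt3) both had 33.0%, and cells with and without markers of lymphoid priming 33.1 and 33.0%. In CMP, cells with lymphoid priming had 32.3% against 30.9%, those with granule genes 31.3% against 29.3%, those with megakaryocyte genes 29.8% against 31.3%, and those with dendritic cell genes 29.5% against 31.4%. The last became 27.0% with 3 or more UMIs, in 200 cells with a lower quartile of 19.2%. For granule genes the median CMP cells lay closer, at 31.6% with them against 31.0% without, with 7545.5 against 3715 UMIs. The 91 CMP cells under 22% had 346 CPM of granule genes summed, against 6047 CPM in the remaining CMP cells. Their part in the granule comparison was not tested.

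**Figure D5:**
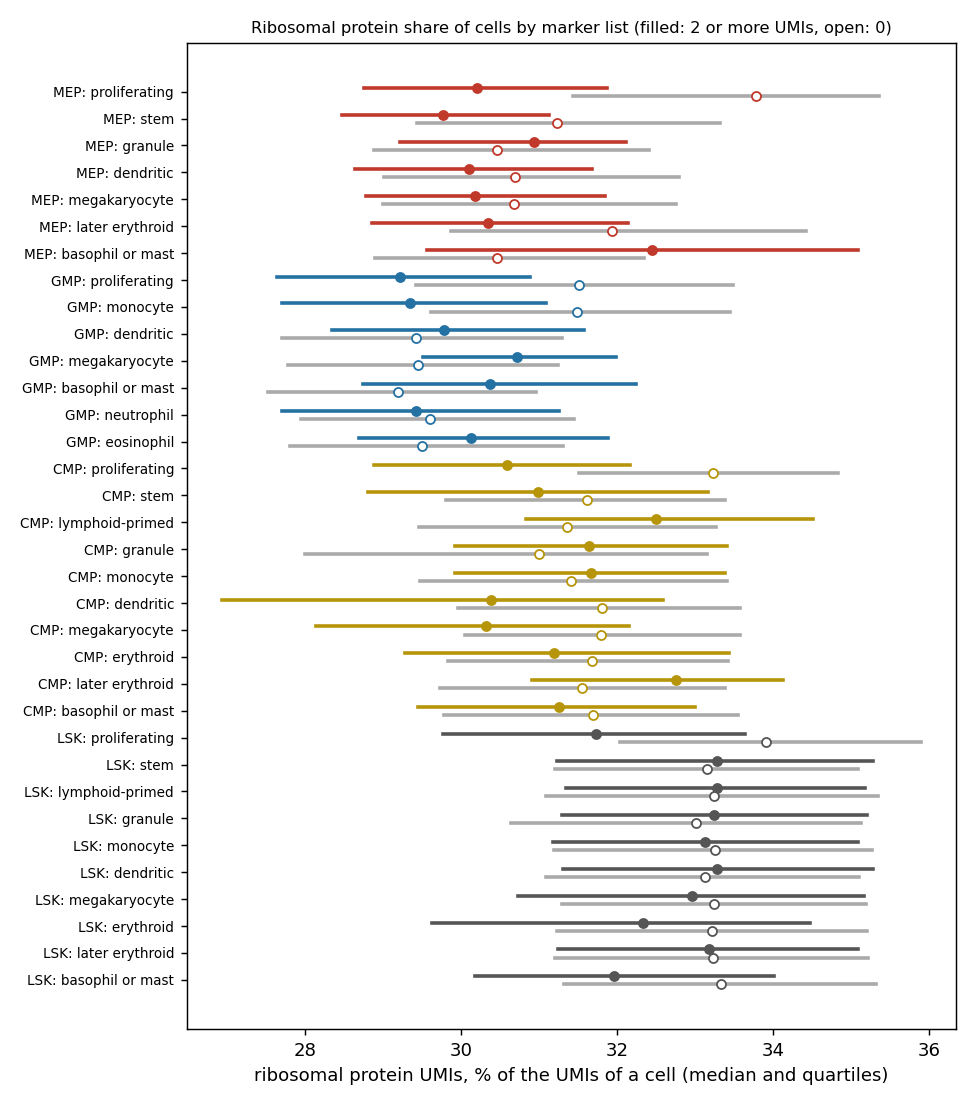
Share of a cell's UMIs from the ribosomal protein genes (x axis, percent, median and quartiles over cells) in cells with 2 or more UMIs of a marker list (filled) and in cells with 0 (open), by gate and list (y axis). Cells with division markers lie left of the cells without them in all 4 gates.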

How the data were processed

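The files are 10x Genomics 3' matrices of raw UMI counts per gene and barcode, not normalized, as deposited by the authors. The submitters' processing notes name the mm10 build and 3 tools without their roles: Seurat 2.3.0, Cell Ranger 2.0.0 and CASAVA 1.8.2. How the authors filtered cells is not given in the sources used here. The labels give 5 samples in 4 gates, and both CMP matrices were identical and were used once as 1 library. The CMP file held 3738 barcodes, and the rest of the 12185 CMP cells in the design text were not analysed here. The LSK matrix held 737280 barcodes, of which the 10883 with 2110 or more UMIs were taken as cells (10882 stated). The GMP and MEP files held the stated 8064 and 6370. Cells needed at least 500 genes and no more than 10% of UMIs from mitochondrial genes, so that 6284 MEP, 8027 GMP, 3713 CMP and 10870 LSK cells remained. Doublets were not called or removed, and leaving out the top 5% of cells by UMIs was tried instead.

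CPM values are sums of counts per gene and library over the library's total, with totals of 26919088 to 80273121 UMIs. A gene was called at a ratio of at least 1.5 (or 2) if it reached 50 CPM in its higher library, and counts under 3 were set to a floor of 3 in ratios. Sums, ratios and shares have exact 95% Poisson, conditional binomial and Clopper-Pearson intervals, which cover counting error alone. Since each gate was 1 library, p-values were not computed. Marker-defined cells had 2 or more UMIs of a list against 0. Python 3.11.15, numpy 2.4.6, scipy 1.17.1, pandas 2.3.3, R 4.3.3 and edgeR 4.0.16 (for TMM factors alone) were used, and the calls were tested on simulated data. All 87 members and 27645 of the 27998 gene IDs were matched to GENCODE M21 (GRCm38) for mRNA length. RefSeq promoters were matched by name, with 69 entries, which include Rps23rg1, Rpl32l and Rpl37rt from outside the members.

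The members, lists, markers and rules were chosen with earlier results of these data known. Genes named are the 10 members with the highest mean level, the 5 with the largest and smallest change in share of member UMIs per contrast, members that are no core gene, Diamond-Blackfan genes past 1.5-fold, and the most abundant or 2-fold changed genes of both other lists, of which a few are not reported here. Rpl11, Rpl5 outside its contrast, Rpl36a, Larp1 and genes of cells under 22% were named after their values were seen. The alternatives were other cell filters, denominators, library scalings and level minimums.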

Additional observations from a re-analysis of the deposited data

Results flagged for a closer look

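The LSK matrix also holds barcodes too small to be cells. Those with 1 to 100 UMIs, 426182 barcodes with 1179757 UMIs, were outside all comparisons and had 31.5% ribosomal protein UMIs, against 33.0% in LSK cells, while barcodes with 101 to 2109 UMIs had 28.1%.

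The 16 rows named as ribosomal protein pseudogenes, which the member rule leaves out, also held UMIs, 477 CPM in MEP, 605 CPM in GMP and 524 CPM in CMP, against 786 CPM in LSK. Reads of the parent genes and of the copies cannot be told apart here.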

How the results depend on the processing

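No paired analysis was possible because each gate was 1 library. The log2 differences in the member share turned to higher in 5 of the 6 contrasts when libraries were scaled by TMM, to 0.32, 0.28 and 0.23 for MEP, GMP and CMP over LSK and 0.09 and 0.05 for MEP and GMP over CMP, and by median-of-ratios factors to 0.40, 0.37, 0.29, 0.11 and 0.08. Under other choices of cells, weights and denominators they kept their direction except in 1 case. With equal weight per cell they were 0.0616 for MEP over GMP, -0.0230 for MEP over CMP, -0.0846 for GMP over CMP, -0.107 for MEP over LSK and -0.168 for GMP over LSK, and without mitochondrial UMIs 0.0513, -0.0320, -0.0833, -0.117 and -0.168. Without the 20 most abundant other genes they were 0.0167, -0.0412, -0.0578, -0.121 and -0.137, and -0.0796 for CMP over LSK. Without the top 5% of cells by UMIs they were 0.0495 for MEP over GMP, -0.0846 for GMP over CMP, -0.119 for MEP over LSK and -0.168 for GMP over LSK, and with no filter on cells -0.119 for MEP over LSK. In cells of 5000 to 8000 UMIs, a band chosen after seeing the data, they were 0.0873 for MEP over GMP, -0.0645 for GMP over CMP, -0.0926, -0.18 and -0.115 for MEP, GMP and CMP over LSK, and 0.0228 for MEP over CMP, which reversed (-0.0342 over all cells), and the cause was not tested. Counts of members past 1.5-fold moved mostly with library scaling. The shares of all genes past 1.5-fold given above are by CPM, so the counts under other scalings have no background here. By median-of-ratios factors and by TMM, members higher were 27 and 22 (4 by CPM) for MEP over LSK, 16 and 10 (2) for GMP over LSK, 6 and 4 (2) for CMP over LSK, 5 and 4 (2) for MEP over CMP and 1 and 1 (0) for GMP over CMP. Members lower were 3 and 3 (15), 0 and 0 (9) and 0 and 0 (5) over LSK, and 1 and 1 (2) for GMP over CMP. By the share of member UMIs alone, 1 was lower for MEP over GMP, 1 higher and 1 lower for GMP over CMP, and 1 lower for GMP over LSK. With no minimum level, 1 was lower for MEP over GMP and 1 higher for GMP over CMP. Of the other 267 values recomputed, 175 were counted as unchanged and 92 as moved. The margin was the interval for shares, the 1.5-fold rule for genes and a margin in points for marker-defined cells. No called gene changed direction. Small differences between marker-defined cells could change sign and still count as unchanged. Thinned to 2000 UMIs, those in CMP went from 0.27 to -0.61 points for monocyte genes and from -0.40 to 0.43 for erythroid genes. With 1 library per gate, depth limits little for core genes, and the spread between mice is unknown.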
